A study of Mus musculus with 14 samples.

Results

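Adenomas of Apc Min/+ mice were compared with healthy small intestine by gene expression arrays, and the differences are described by cell type and pathway. Of the 14 samples of the series, 6 were used, chosen by their labels alone: 3 labelled adenoma and 3 labelled small intestine. The adenomas carry the strain label APCmin/+, a heterozygous germline Apc mutation on a C57BL/6J background, and the small intestine samples carry the strain label C57BL/6J and came from wild type mice. All 6 are RNA of tissue not sorted by cell type, so epithelium, stroma, vessels, immune cells and muscle were read together. The paper describes the healthy small intestine of its methylation comparison as mucosa. Whether these samples were dissected like the adenoma pieces was not tested. By the mouse and piece names in the supplementary sample list, all 3 adenoma samples are macroscopic pieces from 1 mouse, whereas each small intestine sample came from a different mouse. The spread between adenoma arrays is therefore a spread between pieces of 1 animal, and genotype, mouse and tumour cannot be told apart in this comparison. The wild type mice were adults. The ages of the Apc Min/+ mice and the stretch of intestine that each sample came from are not given in the sources used here.

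In the small intestine, Wnt signals at the crypt base keep beta-catenin active and maintain stem cells, while cells that leave the crypt turn off this programme and become enterocytes, goblet cells, Paneth cells, enteroendocrine cells or tuft cells. APC is part of the complex that marks beta-catenin for destruction. Loss of the remaining Apc allele in an Apc Min/+ cell leaves beta-catenin and its partners of the TCF/LEF family active without a Wnt signal, and adenomas form along the intestine. The question addressed was which of these programmes differed between adenoma and healthy tissue, and with them the immune cells, stroma and metabolism of the tissue.

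Expression is given throughout as the log2 of the processed array signal minus the 75th percentile of that array, called log2 signal here, so that 0 is the 75th percentile and 1 unit is a factor of 2 on the linear scale. Signals of different probes are not comparable, and every comparison is between arrays for the same probe. A gene was said to have risen or fallen in adenomas when its log2 difference was at least 1.2 in size with a limma adjusted p of at most 0.01, on probes well above background on all arrays of at least 1 group. By this rule 11.3% of the 22159 genes tested were higher and 11.1% lower. Over all 36282 genes with a probe, tested or not, the shares were 6.92% and 6.79%. These shares are the background against which the counts below stand, and counts over list members include members not tested. An unadjusted limma p under 0.05 was found for 17539 of the 29540 probes tested. Counts of members at that level stand against this large share, and the matching share with mouse as a block is not given here. The median difference over all genes tested was -0.15 (range -0.21 to 0.10 between scalings, filters and omitted arrays). With the 75th percentile taken over probes well above background on all 6 arrays, the split of calls moved from 50.45% to 64.55% higher. Without overlap between the 3 adenoma and the 3 small intestine arrays were 65.3% of the genes tested, and an exact permutation test of 3 against 3 cannot give a two-sided p below 0.1. Per array, 49.2% to 58.2% of probes exceeded background by the scanner's flag, and the number of arrays limits the precision. With another background correction (normexp) or the deposited log2 table, several medians were smaller in size, for example 3.44 and 3.61 for the gastric list, 1.23 and 1.42 for the neutrophil list and 0.14 and 0.31 for the macrophage list, each given further on with its main value. With normexp the medians of the parietal and B cell lists were below 0. The median SD between arrays was 0.166 for adenomas and 0.282 for small intestine.

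Several arrays stood apart within their group, and the values that they touch are given with the results. Small intestine replicate 1 carried Y-linked transcripts (Eif2s3y at a log2 signal of 2.61, against -6.28 and -6.27 in replicates 2 and 3) and no Xist above background, while replicates 2 and 3 and all adenomas had Xist and no listed Y-linked transcript above background. The same array was high in genes of the ileum and low in several genes of the proximal intestine, as given with those lists. Small intestine replicate 2 was the highest in smooth muscle and adipocyte genes, and replicate 3 the highest of the healthy arrays in gastric and mast cell genes. Among the adenomas, replicate 3 was lower than the others in the duodenal genes Pdx1 and Cybrd1. Because the adenomas share a mouse, the comparison was also fitted with mouse as a random block (fitted correlation 0.595), and the number of genes called with this block is given as the blocked count. The adenoma mouse is the whole adenoma group, so this correlation reflects the smaller spread of adenoma arrays (median SD 0.166 against 0.282). The blocked count is a stricter fit and cannot correct for having 1 adenoma mouse. Of 309 list members called, 146 were called with the block, 292 without small intestine replicate 1 and 0 changed sign. Within the slide that held 2 arrays of each group, 82 of the 309 were called. Over 46 gene lists, 32 had a median difference of at least 1 in size, 14 upwards and 18 downwards, and the medians of all 32 had the same sign within each of the 2 slides.

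**Figure D1:**
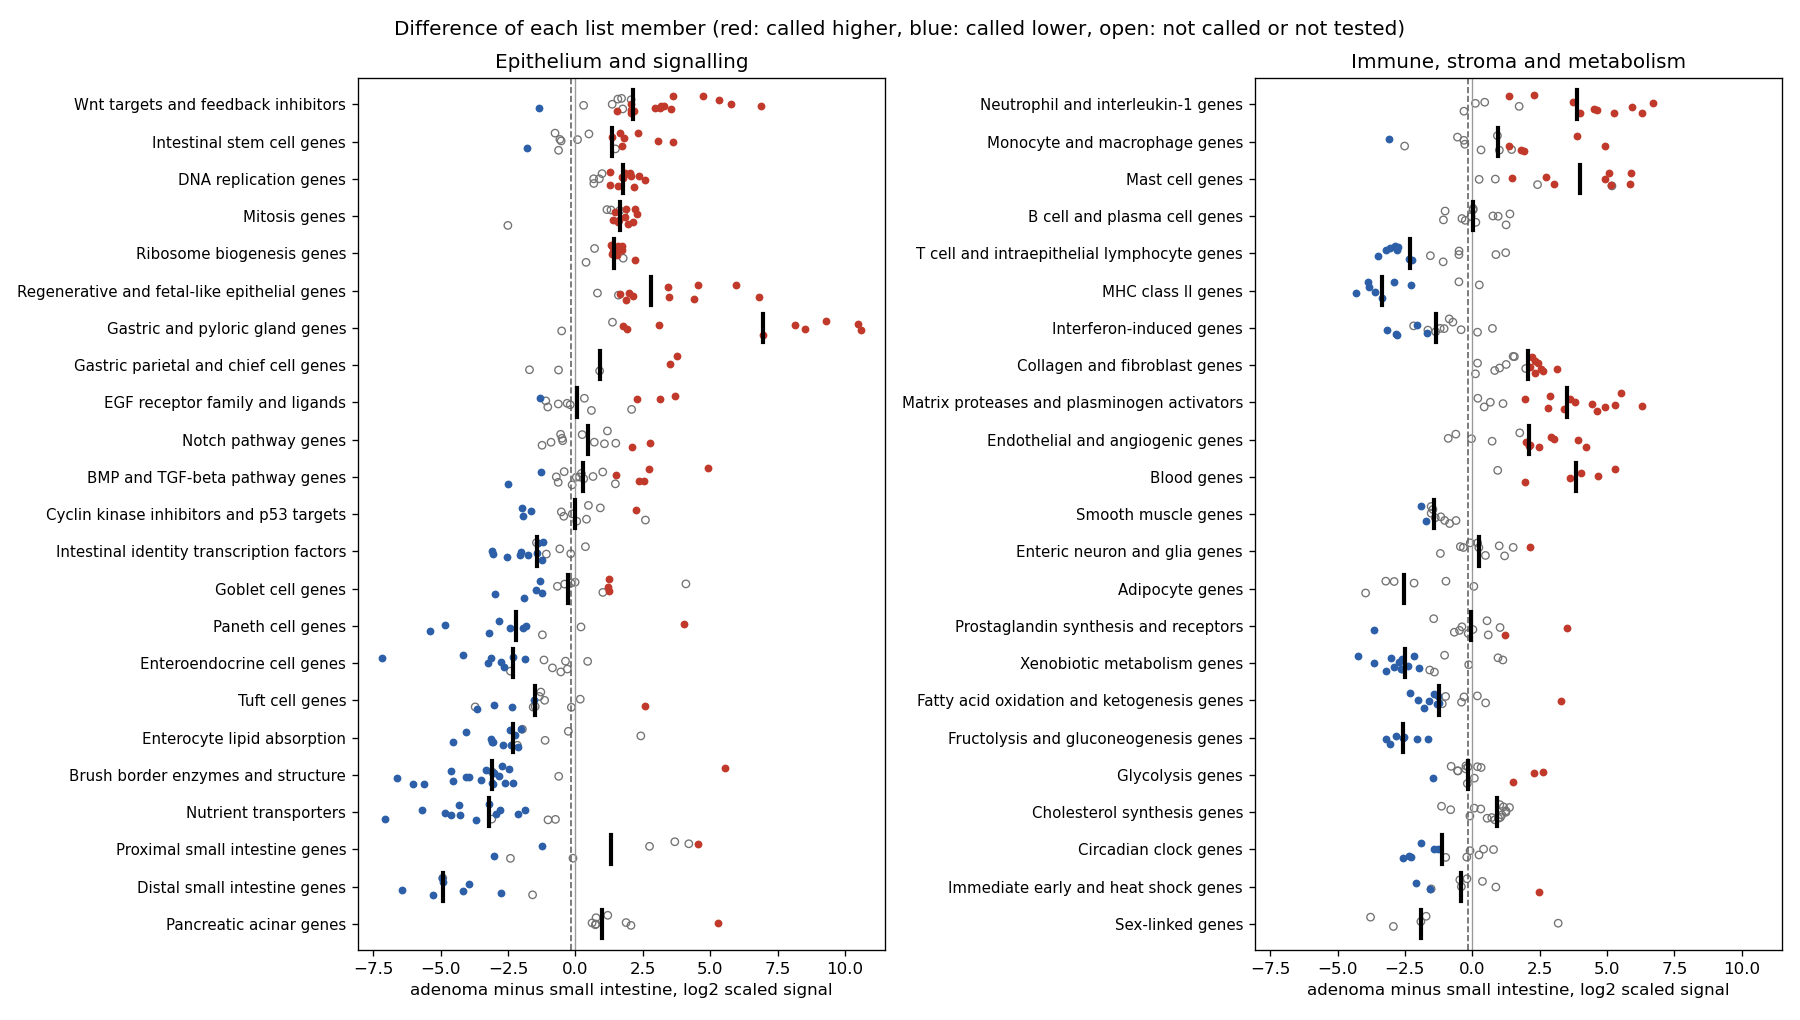
Difference between adenoma and small intestine (log2 signal, x axis) for each measured member of 46 gene lists (y axis). Red points rose, blue points fell, open points were not called or not tested, thick bars are list medians and the dashed line is the median of all genes tested (-0.15). Wnt, gastric, protease and neutrophil lists lie to the right of this line, and enterocyte, enteroendocrine, T cell and MHC class II lists to the left.

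Apc itself had log2 signals of -2.17, -1.84 and -1.79 in small intestine and -2.53, -2.16 and -2.03 in adenomas. The difference was -0.31 (SE 0.2, limma adjusted p = 0.236) and did not pass. The array does not read the Min allele, so this value is no check of the genotype.

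Most targets of the Wnt pathway were higher in adenomas. Of 22 targets and feedback inhibitors, 15 rose and 1 fell, where 11.3% and 11.1% of all genes tested did. The median difference was 2.12, and the blocked count was 11. Medians of the list lay between 2.25 and 2.72 in the adenoma arrays and between -0.85 and 0.16 in small intestine. In unsorted tissue, a larger number of expressing cells and more RNA per cell cannot be told apart, and this holds for every list below.

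Inhibitors of the pathway were among the genes that rose. Wif1, which binds Wnt ligands outside the cell, had log2 signals of -3.27, -3.45 and -1.91 in small intestine and 3.51, 3.8 and 4.7 in adenomas, a difference of 6.88 (SE 0.48, limma adjusted p = 0.000131). Nkd1, an inhibitor that binds Dishevelled, stood at 0.09, 0.49 and -0.4 against 4.5, 4.77 and 5.08, higher by 4.72 (SE 0.27, limma adjusted p = 9.31e-05). Neither gene overlapped between groups, and in both the lowest adenoma was far above the highest healthy array. Notum, a secreted enzyme that removes the lipid of Wnt ligands, stood at 3.48, 3.65 and 4.31 in healthy tissue. It reached 5.16, 5.47 and 5.42 in adenomas, a rise of 1.54. The ubiquitin ligases Rnf43 and Znrf3, which clear Wnt receptors from the surface, rose by 2.06 and 2.05, and Dkk3 rose by 3.18. Nkd2, a paralog of Nkd1, was the exception and fell, from 3.07, 2.05 and 2.26 to 1.29, 0.81 and 1.18, with a difference of -1.37 (SE 0.29, limma adjusted p = 0.00831), but was not called with mouse as a block, with median scaling or without any 1 array.

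The transcription factors of the pathway moved with its inhibitors. Lef1 was well above background on 2 of 3 healthy arrays, at -4.14, -4.1 and -3.95, and stood at 1.46, 1.74 and 1.89 in adenomas, a difference of 5.76 (SE 0.18, limma adjusted p = 3.62e-05), and Tcf7 rose by 2.96. Prox1, detected on 1 healthy array, rose by 5.33, Sox9 by 3.14 and Myc by 2.05. The receptor Lgr5 had log2 signals of 0.24, -0.57 and -1.11 in small intestine and 3.09, 2.96 and 3.36 in adenomas, higher by 3.62 (SE 0.34, limma adjusted p = 0.000327). Cd44, a hyaluronan receptor of the crypt, rose by 3.28, and Ephb3, which positions cells along the crypt, by 2.18, whereas its relative Ephb2 differed by 0.3 (SE 0.19). Axin2, a scaffold of the destruction complex widely used as a readout of the pathway, stood at 0.27, -1.02 and -1.21 in small intestine and 0.92, 0.05 and 1.16 in adenomas. Its groups overlapped through small intestine replicate 1, and the difference of 1.36 (SE 0.46, limma adjusted p = 0.0408) did not pass. Sp5 and Ccnd1 had differences of 2.07 and 1.76 with limma adjusted p of 0.0204 and 0.0163, and both were more variable in healthy tissue than in adenomas. When small intestine replicate 1 was left out, 18 members rose and 0 fell by limma.

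Since these genes moved together, the promoter windows of RefSeq (GRCm38.p6, 250 bases before to 50 after the start site) were searched for the TCF/LEF core CTTTGA on both strands. This and the other motifs were chosen after the values were seen. Of 21 promoters of 14 Wnt list members with an entry, 3 held the core (14.3%), against 16% of all 32851 promoters. The windows of Sp5 and Lef1 are shown because they hold 2 matches each, with the core in capitals. The window of Sp5 lies on the plus strand at chr2:70474807-70474836 and that of Lef1 on the plus strand at chr3:131156162-131156191, where the core is on the opposite strand:
Sp5: cggcaaggccccCTTTGAtcaggaaaatcc
Lef1: cattgtctgttcTCAAAGtcaggtcttgca

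Genes of the crypt base stem cell were in part higher. Of 15 listed, 7 rose and 1 fell (median difference 1.36, blocked count 2). The median was 0.5 with a floor on low signals, 0.58 with normexp and 0.82 with the deposited log2 table, though 14 of the 15 genes were well above background on all 6 arrays. Ascl2, the transcription factor that sets crypt base identity, had log2 signals of 2.26, 0.73 and 0.47 in small intestine and 3.56, 3.59 and 3.28 in adenomas, a rise of 2.32 (SE 0.45, limma adjusted p = 0.0055). Prom1, a membrane glycoprotein, stood at 4.17, 3.76 and 4.07 against 7.02, 7.19 and 6.98, higher by 3.06 (SE 0.18, limma adjusted p = 9.31e-05). Smoc2 rose by 1.79, Cdca7 by 1.74, Slc12a2 by 1.65 and Lrig1 by 1.36. Olfm4, a secreted glycoprotein that marks these cells in the healthy crypt, did not follow Lgr5: its values were 2.54, 1.65 and 0.92 in small intestine and 0.49, 1.04 and 1.32 in adenomas, with overlap and a difference of -0.76 (SE 0.42, limma adjusted p = 0.168). Genes ascribed to reserve stem cells gave differences of 0.08 for Bmi1, 0.5 for Hopx and -0.63 for Tert, none of which passed. Msi1 was lower on the probe with the higher signal (-1.8), but its other probe was called in the opposite direction, so no direction is given for it. Without any 1 adenoma array 3 members rose, and without small intestine replicate 2 or replicate 3, 4 rose.

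Genes of cell growth and division were higher in adenomas. Of 16 DNA replication genes 12 rose and 0 fell (median 1.75), of 15 mitosis genes 10 rose and 0 fell (median 1.64), and of 15 ribosome biogenesis genes 12 rose and 0 fell (median 1.44). Groups did not overlap for 16 of 16, 14 of 15 and 15 of 15 members, with adenomas higher in each. The other mitosis gene overlapped, with a difference of -2.51, and 14 of the 15 were tested. Of all genes tested, 65.3% did not overlap in either direction. Mcm3, a subunit of the replicative helicase, had log2 signals of 2.76, 1.68 and 1.42 in small intestine and 4.58, 4.39 and 4.66 in adenomas, a rise of 2.59 (SE 0.35, limma adjusted p = 0.00125). Mcm2, Mcm4 and Mcm5 rose by 1.77, 2.16 and 2.06, and Rrm2, a subunit of ribonucleotide reductase, by 2.38. Top2a, the topoisomerase that untangles chromosomes, stood at 1.26, 0.32 and -0.15 against 2.82, 2.34 and 2.65, higher by 2.13 (SE 0.36, limma adjusted p = 0.00322), and the kinase Plk1 rose by 2.27. Mki67, the proliferation antigen Ki-67, was at 4.08, 3.16 and 2.54 and 4.84, 4.8 and 5.07, and its difference of 1.64 (SE 0.37, limma adjusted p = 0.01) was just above the threshold of 0.01. Nop56, a core protein of box C/D ribonucleoproteins, rose by 2.2, nucleolin (Ncl) by 1.62 and Polr1b, a subunit of RNA polymerase I, by 1.73. Small intestine replicate 1 was the healthy array nearest to the adenomas in most of these genes, with mitosis genes 1.09 above the mean of replicates 2 and 3 in the median.

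These counts depended on the arrays used and on the block. The blocked counts were 4 for replication, 0 for mitosis (14 of 14 with an unadjusted p under 0.05 in limma) and 1 for ribosome biogenesis. By limma 0 mitosis genes passed without small intestine replicate 2 or without any 1 adenoma array, and 2 or 3 ribosome biogenesis genes did. Without small intestine replicate 3, 7 ribosome biogenesis genes passed, and without adenoma replicate 1 or replicate 2, 7 replication genes did. The list medians stayed positive under each of these omissions.

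Promoters of the replication and mitosis lists were searched on both strands for 2 elements of cell cycle promoters. The cell cycle element TTTGAA was in 11 of 14 mitosis promoters (78.6%), against 17.9% of all promoters and 2 of 14 replication promoters. It shares TTTGA with the TCF/LEF core, and 2 of the 11 promoters hold the combined run CTTTGAA. The E2F core TTCCCGC was in 7 of 14 replication promoters (50%), against 4.6% of all promoters and 0 of 14 mitosis promoters. Rrm1, the large subunit of ribonucleotide reductase, rose by 2.01. Examples are shown for members of both lists, with the matching letters in capitals, for Plk1 on the plus strand at chr7:122159453-122159482, Mki67 on the minus strand at chr7:135716460-135716489, Top2a on the minus strand at chr11:99024351-99024380, Mcm3 on the minus strand at chr1:20820275-20820304 and Rrm1 on the plus strand at chr7:102441617-102441646. A match is a description of letters and not a site of binding:
Plk1: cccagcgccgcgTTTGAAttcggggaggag
Mki67: ccgccgttttggTTTGAAtcgggcgggctg
Top2a: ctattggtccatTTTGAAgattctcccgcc
Mcm3: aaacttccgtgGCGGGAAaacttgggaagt
Rrm1: aggagaactcgTTCCCGCcaggtccgcttt

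Inhibitors of the cell cycle moved both ways. Cdkn1a, the inhibitor p21, had log2 signals of 3.93, 3.95 and 4.72 in small intestine and 2.16, 2.52 and 1.94 in adenomas, a difference of -1.99 (SE 0.27, limma adjusted p = 0.0014). Cdkn2b fell by 1.96 and the stress gene Gadd45a by 1.66, whereas Cdkn1c, the inhibitor p57, rose from 0.48, 1.03 and 1.27 to 3.1, 3.11 and 3.28, higher by 2.24 (SE 0.23, limma adjusted p = 0.000478). Cdkn2a, which encodes p16 and p19ARF, reached -1.03, -0.46 and -2.85 in adenomas against -2.36, -5.44 and -4.34, with a difference of 2.6 (SE 0.88, limma adjusted p = 0.043) that did not pass. Over the 12 members the median was -0.03, with 1 higher and 3 lower, and 1 and 2 with mouse as a block.

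In the EGF, Notch, BMP and TGF-beta pathways, ligands were among the genes that rose. Among EGF family genes, 3 of 12 rose and 1 fell (blocked 2 and 0). Nrg1, a ligand of the receptors ERBB3 and ERBB4, had log2 signals of -2.45, -2.18 and -2.41 in small intestine and 1.31, 1.4 and 1.29 in adenomas, a rise of 3.68 (SE 0.16, limma adjusted p = 4.97e-05). The EGF receptor ligands betacellulin (Btc) and amphiregulin (Areg) rose by 3.15 and 2.29. The receptor Erbb3 fell by 1.32, Egfr differed by 0.59 and Erbb2 by -1.03, the last 2 short of the size asked for. Of 12 Notch pathway genes 2 rose, the ligand Jag2 by 2.11 and the receptor Notch3 by 2.76, each detected on 2 healthy arrays, with a blocked count of 1, and 4 rose without small intestine replicate 1. The target Hes1 stood at -1.02, -2.09 and -2.15 against 0.06, -0.59 and -0.24, a difference of 1.5 (SE 0.34, limma adjusted p = 0.0104) that did not pass. In the BMP and TGF-beta list 5 of 18 rose and 2 fell (blocked 4 and 1). Inhba, the subunit of activin A, went from -4.24, -3.32 and -3.8 to 1.57, 1.25 and 0.59, higher by 4.92 (SE 0.33, limma adjusted p = 0.000121), and Bmp7, Tgfbr2, Tgfb1 and Bmp4 rose by 2.73, 2.53, 2.37 and 1.51. Bmp2 and Tgfbi fell by 1.28 and 2.51, while the BMP target genes Id1, Id2 and Id3 differed by 0.22, 0.15 and -0.12 and did not pass.

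Genes of the stomach and of pyloric and duodenal glands had the highest median of the 46 lists. Of 11 members, 9 rose and 0 fell, with a median of 6.94, or 4.83 when dim signals were set to the floor of their array, and a blocked count of 6. As 1 of the 11 was well above background on all 6 arrays, the others entered the test through the adenomas, and the count and median describe these arrays. With only probes well above background on all 6 arrays 1 member rose. Tff1, the trefoil peptide of the gastric surface, had log2 signals of -7.23, -6.34 and -0.82 in small intestine and 5.57, 6.1 and 5.75 in adenomas, a difference of 10.6 (SE 1.52, limma adjusted p = 0.00168). Tff2, the trefoil peptide of mucous neck and Brunner gland cells, stood at -6.96, -5.38 and 0.58 against 6.71, 7.02 and 5.91, higher by 10.47 (SE 1.75, limma adjusted p = 0.00313). Gkn3 had -1.8, -0.66 and 2.29 against 8.0, 8.59 and 7.63, higher by 8.13 (SE 0.95, limma adjusted p = 0.000759). In each of these genes small intestine replicate 3 was far above the other healthy arrays and below every adenoma, and for Tff1 and Tff2 it was the only healthy array well above background. Muc6, detected on the same healthy array alone, rose by 8.53, Aqp5 by 9.3 and Muc5ac by 3.09. Where a gene was not well above background on any array of a group, its ratio is given as a bound. The bound is against the dimmest detectable signal of each array, or the gene's own signal where that was higher. Gkn2 was at least 28.5-fold higher in adenomas and Gkn1 at least 1.91-fold. Sox2, a transcription factor of the stomach, was not well above background on any of the 6 arrays. Without adenoma replicate 2, 5 members rose. Of 5 parietal and chief cell genes, 2 rose: Atp4a, the catalytic subunit of the proton pump, was at least 4.71-fold higher and Gif, gastric intrinsic factor, at least 5.2-fold, while Atp4b and Pga5 were not tested. The blocked count was 1, as was the count without adenoma replicate 2, and 0 of the 5 exceeded background on all 6 arrays. The duodenal genes Pdx1 and Tmprss15 rose in the same arrays, and the part that the stretch of intestine has in these values was not tested.

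Genes reported in regenerating and fetal intestinal epithelium were higher as well. Of 12 members 10 rose and 0 fell (median 2.79, blocked count 6). Of the 12, 9 were well above background on all 6 arrays, and with only such probes 8 rose. Clu, the secreted chaperone clusterin, had log2 signals of 1.65, 2.84 and 3.68 in small intestine and 8.67, 8.92 and 8.46 in adenomas, a rise of 5.96 (SE 0.48, limma adjusted p = 0.000192). Anxa1, which encodes annexin A1, stood at 0.58, 1.76 and 0.54 against 5.76, 5.41 and 4.92, higher by 4.4 (SE 0.38, limma adjusted p = 0.000251). Ly6a, which encodes the surface antigen Sca-1, rose by 2.15, and the YAP targets Ctgf and Cyr61 by 1.98 and 1.89. Spp1, osteopontin, was at least 43.3-fold higher. Msln overlapped between groups, at 0.53, 2.84 and -0.32 and 2.11, 2.38 and 1.01. Several of these genes are also expressed by stromal or immune cells, and the cells of origin are not read here.

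**Figure D2:**
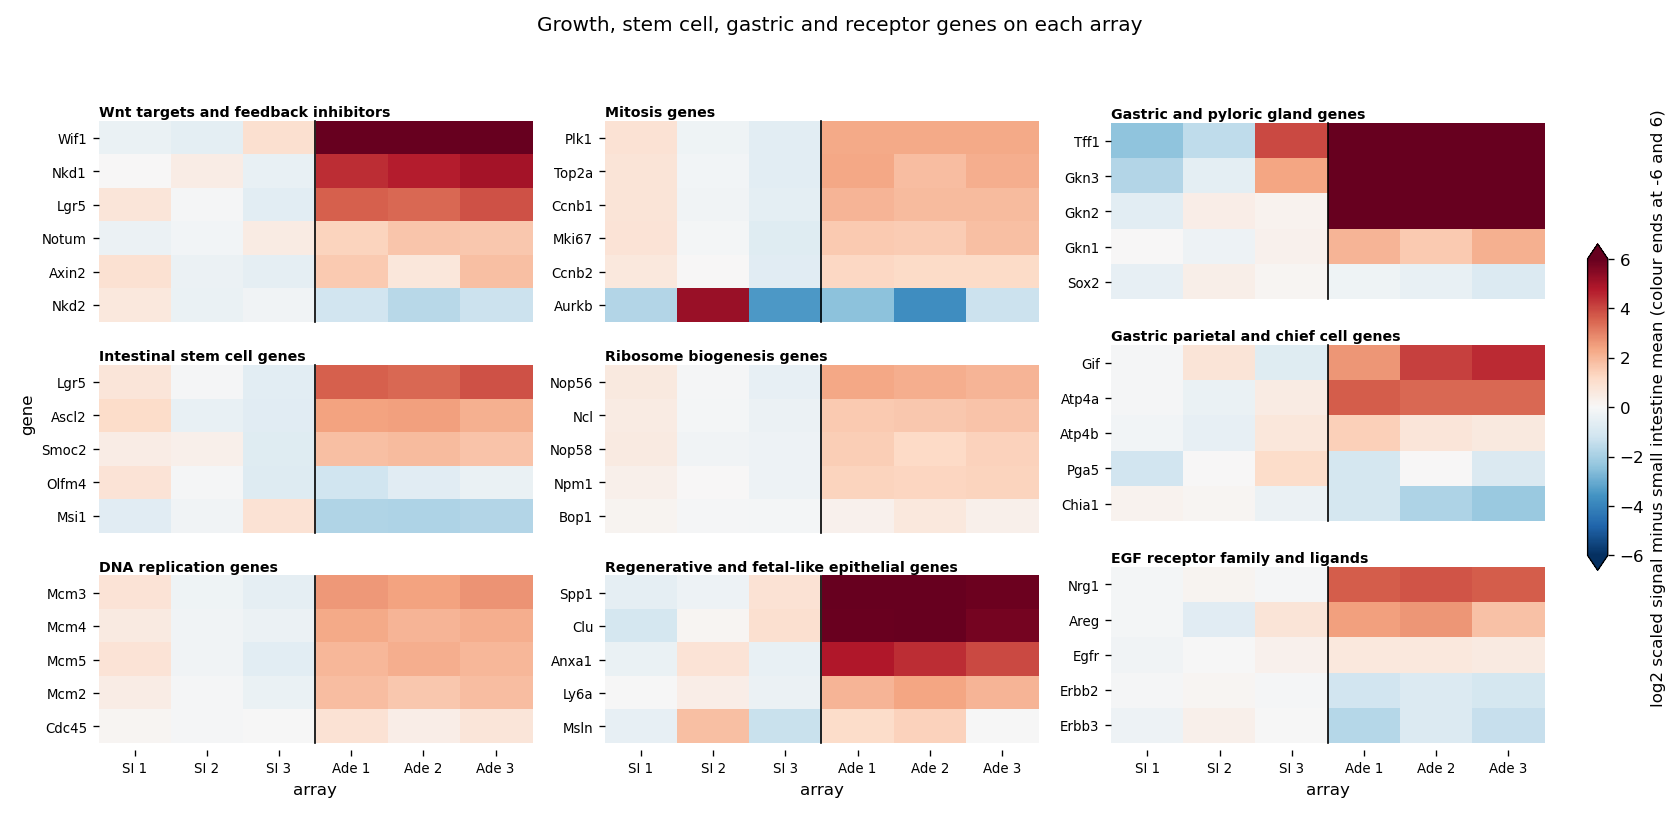
Log2 signal minus the small intestine mean of the same gene (colour, ending at -6 and 6) on each array (x axis; SI, small intestine; Ade, adenoma). Shown for 9 lists are the first 4 measured members reported here and those with the largest difference in each direction. The adenoma arrays are alike, gastric genes such as Tff1 are also raised in SI 3, and Nkd2 and Msi1 lie below the healthy arrays on the probes shown.

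Transcription factors of intestinal identity were lower. Of 15 listed, 0 rose and 10 fell (median -1.42, blocked count 4). Cdx1, a homeobox factor of the intestine, had log2 signals of 6.48, 5.91 and 5.93 in small intestine and 4.13, 4.3 and 4.64 in adenomas, a difference of -1.75 (SE 0.23, limma adjusted p = 0.00116). Cdx2, its relative, stood at 5.35, 4.81 and 5.0 against 3.37, 3.73 and 3.82, a difference of -1.42 (SE 0.21, limma adjusted p = 0.00203). Hnf4a and Hnf4g, nuclear receptors that drive enterocyte genes, fell by 1.4 and 2.54. The lowest differences of the list were -3.08 for Maf and -3.06 for Klf4, a factor of post-mitotic epithelium, while Klf5, a factor of dividing crypt cells, differed by -0.17 (limma adjusted p = 0.427). Without adenoma replicate 1, 6 members fell, as also with the percentile over detected probes and with the deposited log2 table.

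Enterocyte programmes were lower in adenomas. For lipid absorption 11 of 16 members fell and 0 rose (median -2.3, blocked count 6), for the brush border 18 of 21 fell and 1 rose (median -3.09, blocked 13 and 0), and for nutrient transporters 12 of 15 fell and 0 rose (median -3.22, blocked 6). The enterocyte genes were not absent from the adenomas. Apoa1, an apolipoprotein of chylomicrons, had log2 signals of 8.09, 8.98 and 9.1 in small intestine and 5.15, 6.12 and 5.51 in adenomas, a difference of -3.13 (SE 0.35, limma adjusted p = 0.000653) and still far above the 75th percentile. Npc1l1, the cholesterol importer, showed the widest gap of its list, at 5.88, 6.64 and 6.87 against 1.63, 1.98 and 2.2, a difference of -4.53 (SE 0.29, limma adjusted p = 0.000113). Fabp1 and Apoa4 did not pass, and small intestine replicate 1 was low in both: Fabp1 stood at 5.43, 9.24 and 9.56 against 7.29, 8.06 and 8.09, and Apoa4 at 5.0, 8.74 and 9.42 against 5.41, 6.35 and 5.49. Without that array 15 lipid absorption genes fell. The highest difference of the list was 2.43, in a member that overlapped between groups and did not pass. Without small intestine replicate 3, 1 member of this list rose.

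Several digestive enzymes of the brush border fell. Sucrase-isomaltase (Sis) had log2 signals of 7.54, 8.54 and 8.52 in small intestine and 2.77, 3.66 and 4.34 in adenomas, a difference of -4.61 (SE 0.45, limma adjusted p = 0.000373). Treh, which cleaves trehalose, and Mgam, which cleaves starch fragments, fell by 3.01 and 3.06, and Naaladl1, a peptidase, by 6.61, from 7.02, 6.0 and 5.84 to -1.37, -0.62 and 1.03. The 5 structural genes of the microvillus fell by 2.33 to 3.3, among them villin (Vil1) by 2.46 and Myo1a by 2.33. Lactase (Lct) stood at 5.9, 9.38 and 9.39 against 4.34, 5.23 and 5.86 and did not pass with a difference of -3.08 (SE 0.95, limma adjusted p = 0.0309), small intestine replicate 1 again being the low healthy array. Alpi, intestinal alkaline phosphatase, differed by -0.62 (SE 0.49, limma adjusted p = 0.313), with adenoma replicate 3 the lowest array. The exception was Tmprss15, enteropeptidase, an enzyme of the duodenum: it was not above background in small intestine, stood at 0.08, 0.11 and -3.41 in adenomas and was at least 10.8-fold higher. It was not called with mouse as a block or without small intestine replicate 2, adenoma replicate 1 or adenoma replicate 2. Nor was it called with a floor on low signals, normexp, the deposited log2 table or all 14 arrays in the fit. In the transporter list, Slc5a1, the sodium-glucose transporter SGLT1, stood at 2.91, 4.46 and 4.92 against -0.68, -0.63 and -0.27, a difference of -4.63 (SE 0.49, limma adjusted p = 0.000519), and Slc15a1, the peptide transporter PEPT1, fell by 4.3. Slc34a2, a phosphate transporter, fell from 2.72, 2.33 and 1.79 to -5.82, -5.56 and -3.0, and was well above background on 1 adenoma array. Slc2a2, the sugar transporter GLUT2, stood at 0.03, 4.15 and 4.81 against -0.26, 0.28 and -0.34, so that small intestine replicate 1 lay among the adenomas and the difference of -3.1 (SE 1.15, limma adjusted p = 0.0566) did not pass.

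Genes that mark a stretch of the intestine varied within both groups. In healthy tissue replicate 1 was high in ileal genes: Slc10a2, the ileal bile acid importer, stood at 5.54, -1.94 and -2.11 and Fabp6, the ileal bile acid binding protein, at 9.93, 1.6 and -1.75, saturated on the first of these arrays. Adenomas were low in both, at -1.41, -1.17 and -0.7 and -1.76, -1.42 and -1.79. Even so, 7 of 9 distal genes fell, and 7 fell without replicate 1 (median -4.92, or -3.55 without it, blocked count 4). Among them, Slc51a and Slc51b, which export bile acids, and Cubn and Amn, the receptor for vitamin B12 with intrinsic factor, were higher in all healthy arrays than in any adenoma, and Gcg and Pyy also stand in the enteroendocrine list. Slc51a stood at 7.46, 5.66 and 6.11 against 2.12, 2.7 and 2.52, and Cubn fell by 6.44. Without adenoma replicate 2, 4 of these genes fell.

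The proximal list was split. Pdx1, a homeobox factor of duodenum and pancreas, was not above background in small intestine and stood at -0.14, -0.19 and -2.9 in adenomas, at least 10.8-fold higher. Onecut2, a factor of the proximal epithelium, stood at -2.4, 1.41 and 2.93 against 4.7, 5.14 and 4.72, and Cybrd1, the duodenal iron reductase, at -1.45, -0.85 and -0.79 against 4.0, 3.69 and 0.28. These groups did not overlap, yet neither passed, with differences of 4.21 (SE 1.21, limma adjusted p = 0.0241) and 3.69 (SE 0.92, limma adjusted p = 0.0146). Rdh7 and Bche fell by 3.02 and 1.24, and Gata4 overlapped between groups (-0.09). In Pdx1, Cybrd1, Slc40a1 and Tmprss15, adenoma replicate 3 was the lowest adenoma, by 2 log2 units or more. In all, 1 of 8 proximal genes rose and 2 fell, and 3 rose without adenoma replicate 3. The blocked counts were 0 and 1, and 0 rose without small intestine replicate 2, adenoma replicate 1 or adenoma replicate 2. The list median of 1.33 turned to -0.091 when only probes well above background on all 6 arrays were kept. Of 8 pancreatic acinar genes 1 rose, Cela1, from -1.64, -2.37 and -1.46 to 3.5, 3.81 and 3.15, higher by 5.31 (SE 0.29, limma adjusted p = 8.14e-05). The defining acinar genes Cpa1 and Pnlip were not among the genes that rose. They stood at -2.41, -3.14 and -6.15 and at -3.86, -5.22 and -7.62 in adenomas, with replicate 3 the lowest in both. The part that the stretch of intestine has in the enterocyte, gastric and enteroendocrine differences was not tested.

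**Figure D3:**
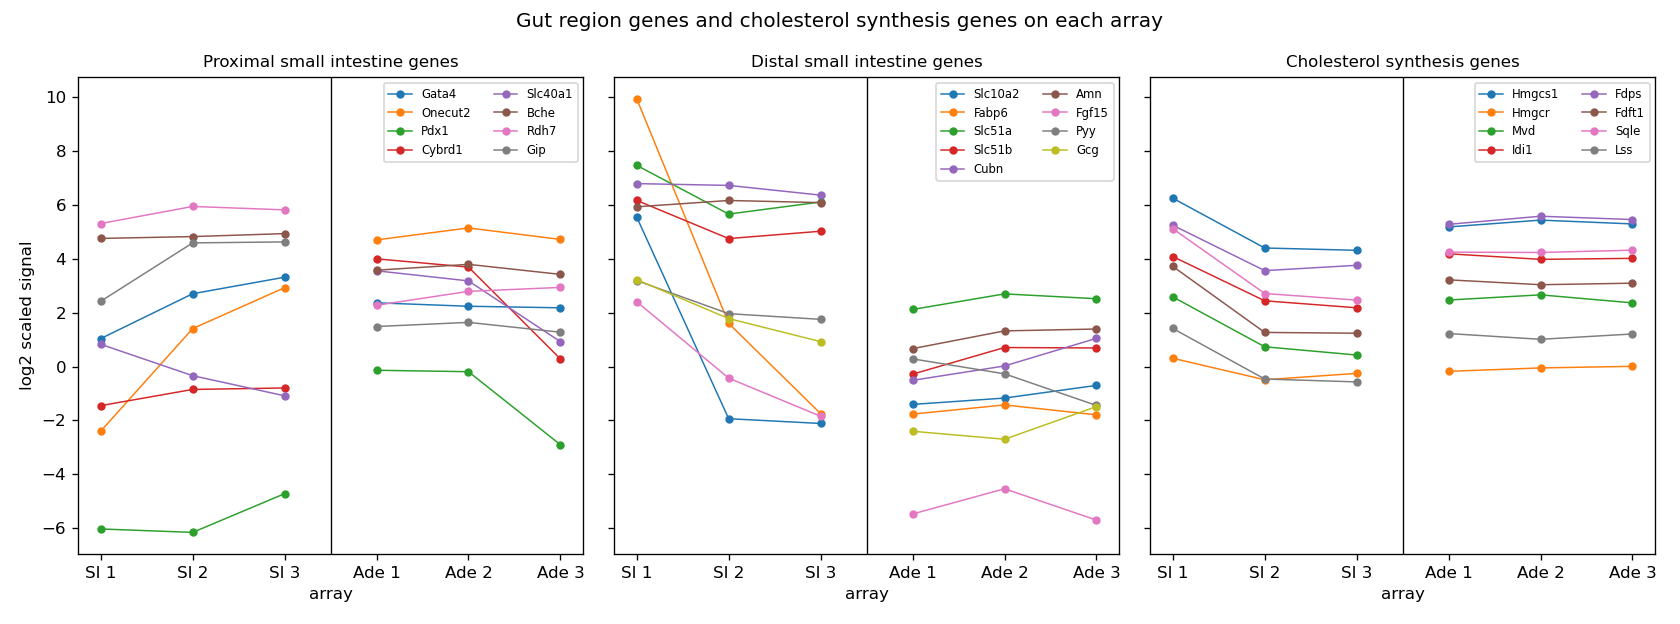
Log2 signal (y axis) of all measured proximal and distal genes and of the first 8 cholesterol synthesis genes on each array (x axis; SI, small intestine; Ade, adenoma), with lines joining the arrays of a group. Levels are comparable along a line, not between genes. SI 1 is high in Slc10a2, Fabp6 and cholesterol synthesis genes, and Ade 3 is low in Cybrd1, Pdx1 and Slc40a1.

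Of the secretory lineages, goblet cell genes were mixed. Among goblet cell genes 3 of 14 rose and 5 fell (median -0.28, blocked counts 0 and 0 in limma, with 10 at an unadjusted p under 0.05). Over all probes tested, 17539 of 29540 were at that level in limma without the block. Muc2, the main mucin of the goblet cell, had log2 signals of 6.67, 5.74 and 6.17 in small intestine and 5.72, 5.55 and 6.12 in adenomas, with a difference of -0.4 (SE 0.28, limma adjusted p = 0.255). Clca1 and Zg16, abundant proteins of intestinal mucus, fell by 2.99 and 1.89, Tff3 by 1.47 and Fcgbp by 1.31. Spdef and Creb3l1, factors of the secretory pathway, and Galnt12, which adds sugars to mucins, rose by 1.24, 1.21 and 1.23, close to the size asked for. Without any 1 adenoma array 0 goblet genes rose by limma, and without small intestine replicate 2 or replicate 3, 1 rose. Atoh1, which commits cells to the secretory fate, fell by 1.23, and without adenoma replicate 3, 3 goblet genes fell. Retnlb stood at -0.1, -3.53 and 0.74 against 3.17, 3.58 and 2.66, a difference of 4.1 (SE 1.02, limma adjusted p = 0.0141) with the healthy arrays wide apart.

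Most Paneth cell products were lower. Of 10 measured, 7 fell and 1 rose (median -2.19, blocked counts 1 and 1). The defensins Defa3, Defa5 and Defa21 fell by 1.83, 3.2 and 5.38, and Ang4, an antimicrobial ribonuclease, by 4.84, from 7.67, 7.19 and 7.8 to 2.27, 2.49 and 3.39. Copies of the alpha defensin family are nearly identical, so that the signal of each probe may hold several of them. Lyz1, the lysozyme of Paneth cells, stood at 8.77, 9.29 and 8.15 against 7.61, 7.23 and 7.68, a difference of -1.23 (SE 0.3, limma adjusted p = 0.0143) that fell short. Mmp7, the protease that processes defensins, overlapped between groups, at 5.07, 4.75 and 3.82 and 4.67, 4.78 and 4.8. Pla2g2a, a secreted phospholipase of the Paneth cell, rose from 2.11, 1.21 and 0.74 to 5.3, 5.44 and 5.46, higher by 4.05 (SE 0.34, limma adjusted p = 0.000223). In these defensins adenoma replicate 3 was the highest adenoma, and 4 Paneth genes fell without adenoma replicate 1 or replicate 2.

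Several hormone genes of enteroendocrine cells fell. Of 15 listed, 8 fell and 0 rose (median -2.3, blocked count 5). Chga, a granin of the hormone granule, had log2 signals of 4.79, 4.85 and 5.07 in small intestine and 2.77, 2.55 and 2.48 in adenomas, a difference of -2.3 (SE 0.17, limma adjusted p = 0.000147). Nts, neurotensin, showed the widest gap, from 5.17, 5.07 and 4.89 to -2.78, -2.28 and -1.37, a difference of -7.18 (SE 0.35, limma adjusted p = 5.92e-05). Sct, Sst, Gcg and Pyy, which encode secretin, somatostatin, glucagon-like peptides and peptide YY, fell by 3.13, 3.24, 4.17 and 2.78. Neurog3, the factor that starts this lineage, stood at 0.03, -0.03 and -0.92 against 0.07, 0.02 and 0.35, a difference of 0.45 (SE 0.28, limma adjusted p = 0.206), while its target Neurod1 was not above background in adenomas and was at least 3.01-fold lower. Tph1, which makes serotonin, and Ghrl, ghrelin, differed by -0.37 and -0.3 and did not pass. Among tuft cell genes, 4 of 13 fell and 1 rose (median -1.49, blocked 2 and 0), with 2 falling without any 1 adenoma array. The channel Trpm5 fell by 2.34 and Siglecf by 3.65, Dclk1 differed by 0.18 (1.21, past the threshold, as the median over its probes), and Avil, an actin-binding protein, rose by 2.59. Siglecf is also expressed by leukocytes.

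**Figure D4:**
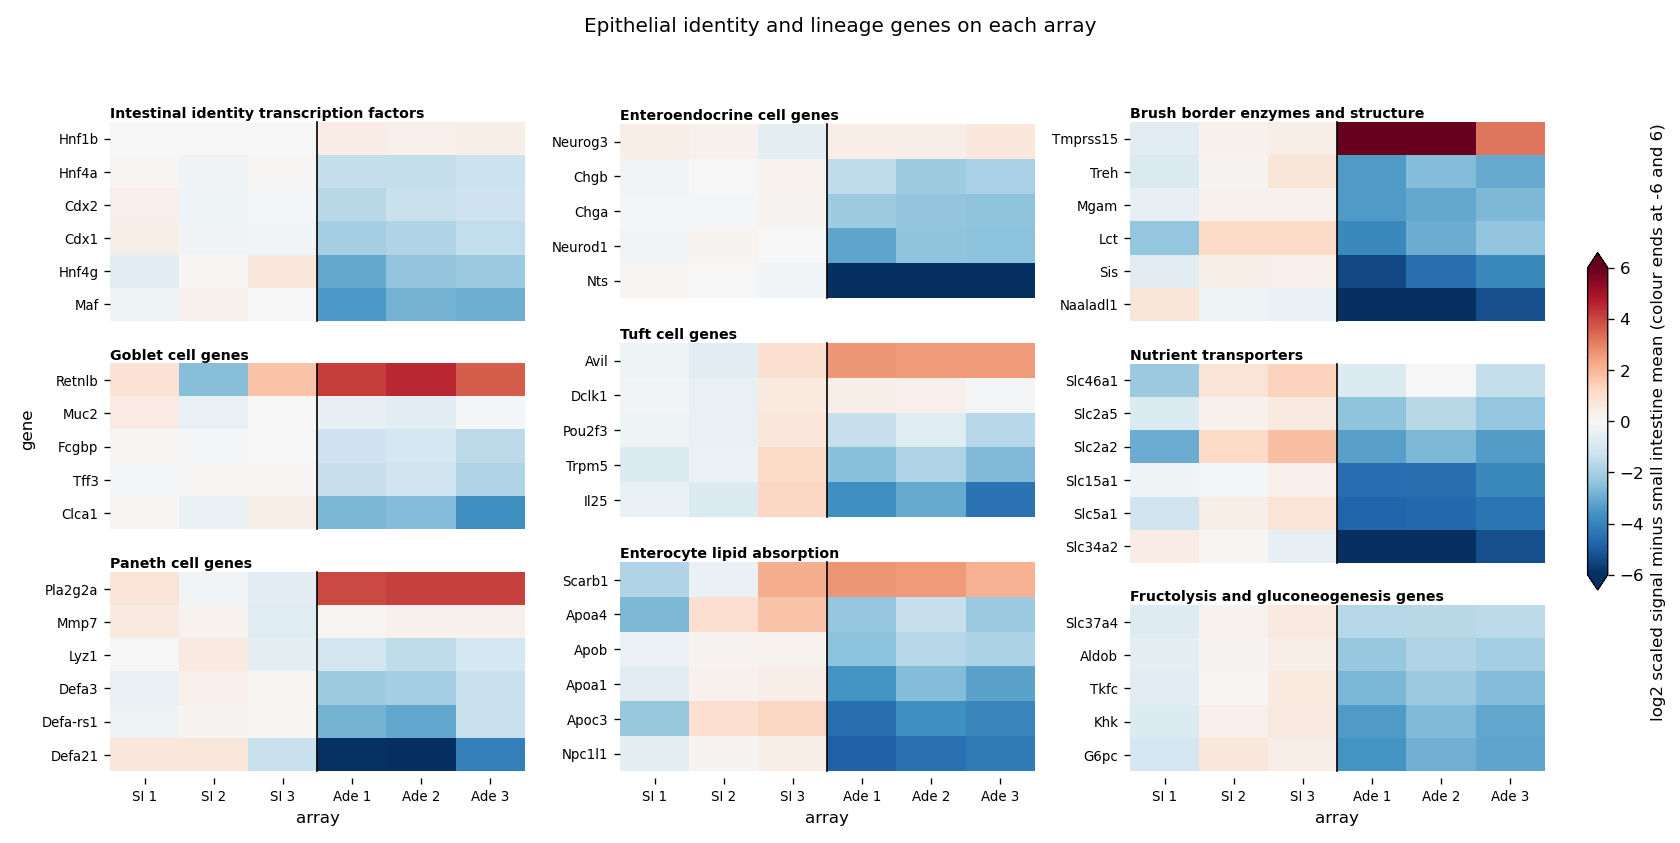
Log2 signal minus the small intestine mean of the same gene (colour, ending at -6 and 6) on each array (x axis; SI, small intestine; Ade, adenoma) for 9 lists of epithelial identity and lineage, with members chosen as in the plot of growth genes. Most rows are blue in all 3 adenomas, and Apoa4, Lct and Slc2a2 are low in SI 1 as well. Pla2g2a, Tmprss15, Avil and Retnlb are among the red rows.

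Most metabolic genes of the mature enterocyte were lower. All 7 genes of fructolysis and gluconeogenesis fell (median -2.58, blocked count 3). Khk, the ketohexokinase that takes up fructose carbon, had log2 signals of 7.03, 8.13 and 8.36 in small intestine and 4.46, 5.21 and 4.74 in adenomas, a difference of -3.04 (SE 0.38, limma adjusted p = 0.000939), and G6pc, glucose-6-phosphatase, fell by 3.22. Of 18 xenobiotic metabolism genes 12 fell and 0 rose (median -2.5, blocked 4), among them Cyp3a11 by 3.64 and Cyp4f14 by 4.23. Members of the Cyp3a and Cyp2c families are close in sequence, and 7 genes of the list fell without small intestine replicate 2, adenoma replicate 1 or adenoma replicate 3. In fatty acid oxidation 8 of 15 fell and 1 rose (median -1.22, blocked counts 3 and 1). Acadm, the medium-chain acyl-CoA dehydrogenase, fell by 1.8 and the regulator Ppara by 1.61. Without small intestine replicate 3, 5 genes of this list fell, and 4 fell with the percentile over detected probes or with the deposited log2 table.

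Of 14 glycolysis genes 3 rose and 1 fell (median -0.17, blocked counts 1 and 0). Slc2a1, the transporter GLUT1, had log2 signals of 0.95, 0.43 and 0.83 in small intestine and 3.5, 3.28 and 3.33 in adenomas, a rise of 2.63 (SE 0.19, limma adjusted p = 0.000147). Hexokinase 2 (Hk2) rose by 2.28 and Pfkl, the liver form of phosphofructokinase, by 1.52, while the platelet form Pfkp fell by 1.46. The other 10 did not pass, among them Gapdh, the dehydrogenase often used as a reference gene, with a difference of -0.23 (SE 0.26).

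For cholesterol synthesis the result rested on 1 healthy array. None of 16 genes passed on all arrays (median 0.9), by limma, where 4 had an unadjusted p under 0.05, against 17539 of all 29540 probes tested. Small intestine replicate 1 was above the mean of replicates 2 and 3 by a median of 1.79, with 12 members higher by more than 1. Cyp51 stood at 1.09, -1.73 and -1.56 in small intestine and 0.83, 0.48 and 0.63 in adenomas, so that replicate 1 lay above the adenomas. Without that array 9 of 16 genes rose, with a median of 1.62.

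Genes of neutrophils and of interleukin-1 signalling were higher in adenomas. Of 14 neutrophil and interleukin-1 genes 10 rose and 0 fell (median 3.88, 2.26 with dim signals at the floor, blocked count 8). With only probes well above background on all 6 arrays 3 rose. Il1b, interleukin-1 beta, had log2 signals of -4.2, -3.82 and -3.58 in small intestine and 0.71, 0.61 and 0.59 in adenomas, a difference of 4.5 (SE 0.2, limma adjusted p = 5.01e-05). S100a9, a subunit of calprotectin, stood at -4.46, -4.92 and -4.02 against 1.39, 1.28 and 1.67, higher by 5.92 (SE 0.26, limma adjusted p = 5.01e-05) with 2 healthy arrays detected, and its partner S100a8 was at least 12.1-fold higher. The neutrophil chemoattractants Cxcl5 and Cxcl1 were at least 36.2-fold and 27.3-fold higher, and lipocalin 2 (Lcn2) rose by 4.62. Cxcr2, the receptor of these chemokines and a marker of neutrophils themselves, was not well above background on any array.

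Macrophage genes were mixed. Of 14 members 5 rose and 1 fell (median 0.97, blocked 3 and 0). The chemokine Ccl2 rose from -4.33, -3.78 and -3.79 to 1.38, 1.15 and 0.39, higher by 4.94 (SE 0.3, limma adjusted p = 9.86e-05), and arginase 1 (Arg1), detected on 1 healthy array, by 3.88. The pan-macrophage genes Csf1r and Emr1, which encodes F4/80, differed by -0.28 and 0.33 and did not pass, Cd68 was at least 1.57-fold higher, and the integrin Itgam fell by 3.09. Nos2, inducible nitric oxide synthase, did not pass and ranged from -0.83 to 4.41 over the healthy arrays, the highest being replicate 1.

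Mast cell proteases were high in adenomas and in 1 healthy array. Mcpt1 and Mcpt2, proteases of mucosal mast cells, stood at -1.0, -2.33 and 2.84 and -2.36, -3.1 and 1.57 in small intestine, against 4.03, 5.58 and 5.46 and 3.83, 5.14 and 4.77 in adenomas. Mcpt2 rose by 5.88 (SE 1.14, limma adjusted p = 0.00549), whereas Mcpt1 did not pass with 5.18 (SE 1.24, limma adjusted p = 0.0122), small intestine replicate 3 lying between the groups. Cma1, a chymase of connective tissue mast cells, was not above background in any healthy array and was at least 11.6-fold higher. Of 12 genes 8 rose and 0 fell (median 3.99), with a blocked count of 1. Of the 12, 7 were well above background on all 6 arrays, and with only such probes 6 rose. Without small intestine replicate 1 or replicate 2, or without adenoma replicate 2 or replicate 3, 3 rose, and without adenoma replicate 1, 4 rose. Adenoma replicate 1 was the lowest adenoma in Mcpt1, Mcpt2 and Cma1.

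T cell and MHC class II genes were lower. Of 14 T cell genes 8 fell and 0 rose (median -2.3, blocked count 5). Cd3g, a chain of the T cell receptor complex, had log2 signals of 0.46, 0.83 and 1.4 in small intestine and -2.54, -2.05 and -1.9 in adenomas, a difference of -3.06 (SE 0.29, limma adjusted p = 0.000339). Cd3d, Cd8a (detected on 2 adenoma arrays) and Cd4 fell by 2.74, 2.8 and 2.88, granzyme A (Gzma) by 3.19 and Ccl5 by 3.49. Foxp3, the factor of regulatory T cells, went against the list without passing, at -3.58, -4.83 and -4.34 against -3.18, -3.11 and -2.73, a difference of 1.24 (SE 0.33, limma adjusted p = 0.0175). In MHC class II, 7 of 9 genes fell (median -3.34, blocked count 5). Cd74, the invariant chain, stood at 7.04, 6.84 and 6.58 against 2.56, 3.28 and 3.16, a difference of -3.82 (SE 0.24, limma adjusted p = 0.000108), and H2-Ab1 and H2-DMa fell by 3.34 and 4.33. Their regulator Ciita, detected on 2 adenoma arrays, fell by 2.27. MHC class II genes are expressed by enterocytes as well as by leukocytes, and the 2 sources are not read apart. The B cell list gave no call: 5 of 12 genes could be tested in limma, 2 had an unadjusted p under 0.05, and Igj, the joining chain of secreted antibodies, differed by 0.03 (SE 0.34).

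Interferon-induced genes were lower in part. Of 15 members 5 fell and 0 rose (median -1.36, blocked count 1). Irf7, a factor that amplifies the interferon response, had log2 signals of 2.61, 3.3 and 3.8 in small intestine and -0.14, 0.55 and -0.2 in adenomas, a difference of -3.17 (SE 0.35, limma adjusted p = 0.000588). Ifit1, which binds foreign RNA, stood at 0.88, 2.18 and 2.44 against -0.0038, -1.09 and -1.9, a difference of -2.83 (SE 0.57, limma adjusted p = 0.00632). Small intestine replicate 1 was the lowest healthy array in Ifit1, Ifit3 and Isg15, and without it 7 members fell. Without small intestine replicate 2 or replicate 3, 3 fell, and without adenoma replicate 2 or replicate 3, 2 fell. The interferon response core, a repeat of GAAA with NN between its copies, was searched on both strands and was in 7 of 13 promoters of the list (53.8%), against 3.44% of all promoters.

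Matrix proteases and their inhibitors were higher in adenomas. Of 16 matrix protease and plasminogen genes 12 rose and 0 fell (median 3.52), and 11 rose with mouse as a block. Of the 16, 11 were well above background on all 6 arrays, and with only such probes 8 rose. Timp1, an inhibitor of matrix metalloproteinases, had log2 signals of -3.62, -2.94 and -3.06 in small intestine and 3.11, 3.1 and 3.03 in adenomas, a difference of 6.29 (SE 0.21, limma adjusted p = 3.62e-05). Plat, tissue plasminogen activator, stood at -2.02, -1.95 and -1.96 against 3.54, 3.18 and 3.21, higher by 5.29 (SE 0.17, limma adjusted p = 3.62e-05). Mmp10, Mmp13 and Mmp14 rose by 4.64, 4.44 and 3.63 and the urokinase receptor Plaur by 3.4. Mmp3 was at least 10.9-fold higher and urokinase (Plau) at least 4.15-fold.

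Collagen and fibroblast genes were higher. Of 16 members 8 rose and 0 fell (median 2.07, blocked count 2), and 5 rose without adenoma replicate 2. Col1a1, a chain of the main fibrillar collagen, had log2 signals of 0.89, 1.8 and 0.07 in small intestine and 3.93, 4.04 and 4.21 in adenomas, a difference of 3.14 (SE 0.41, limma adjusted p = 0.00111). The basement membrane chain Col4a1 and the receptor Pdgfra rose by 2.44 and 2.62. Dcn, which encodes decorin of resident fibroblasts, differed by 1.01 and did not pass, and the healthy arrays were spread, replicate 2 being the highest and replicate 3 the lowest. Of 10 smooth muscle genes 2 fell (median -1.42, blocked count 0 in limma with 4 at an unadjusted p under 0.05, 0 without small intestine replicate 1 or 2 or any 1 adenoma array, and 5 without small intestine replicate 3). With quantile normalization, the percentile over detected probes or the deposited log2 table, 0 fell. Actg2, an actin of enteric muscle, stood at 5.51, 6.9 and 4.87 against 4.36, 4.4 and 3.94, a difference of -1.53 (SE 0.49, limma adjusted p = 0.0345) that did not pass. Adipocyte genes were high in small intestine replicates 1 and 2 and low in replicate 3, with Adipoq at -0.27, 1.51 and -6.09 there and -6.78, -5.73 and -4.22 in adenomas, and 0 of 6 passed in limma, or 4 without replicate 3. How much wall and fat each sample contained was not tested as a part of the other differences.

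Genes of vessels and of red blood cells were higher in adenomas. Of 13 endothelial genes 8 rose and 0 fell (median 2.12, blocked count 6). Esm1, a secreted proteoglycan of sprouting endothelium, had log2 signals of -3.6, -1.83 and -3.06 in small intestine and 1.6, 1.27 and 1.29 in adenomas, a difference of 4.22 (SE 0.43, limma adjusted p = 0.000439), and Cdh5, the cadherin of endothelial junctions, rose by 3.93. Pecam1, a general marker of endothelium, differed by 0.74 (SE 0.23, limma adjusted p = 0.0306) and Lyve1, of lymphatic vessels, by -0.89, and neither passed. All 5 tested blood genes rose (blocked count 4), the haemoglobin Hba-a1 from 1.49, 2.86 and 1.67 to 5.7, 6.28 and 6.16, higher by 4.04 (SE 0.38, limma adjusted p = 0.000327), and the erythroid enzyme Alas2, detected on 1 healthy array, by 5.29. Haemoglobin copies share sequence. Of 11 neuron and glia genes 1 rose, S100b, by 2.13, which did not pass with mouse as a block or without any 1 adenoma array, while Elavl4 and Tubb3 differed by 1.52 and 0.2.

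Prostaglandin genes did not move as a list, though an enzyme of synthesis rose and one of breakdown fell. Ptgs2, the inducible cyclooxygenase COX-2, had log2 signals of -4.11, -3.51 and -3.39 in small intestine and 0.35, 0.23 and -1.08 in adenomas, a rise of 3.5 (SE 0.41, limma adjusted p = 0.000747). Hpgd, the dehydrogenase that inactivates prostaglandin E2, stood at 3.81, 4.69 and 4.42 against 0.44, 0.74 and 0.79, a difference of -3.65 (SE 0.25, limma adjusted p = 0.000133), and remained called with mouse as a block, where Ptgs2 did not. The constitutive enzyme Ptgs1 differed by -0.15 (SE 0.22) and did not pass. Of 12 members, 11 of them tested, 2 rose (16.7%) and 1 fell (8.33%). The shares were 11.3% and 11.1% of all genes tested, and 6.92% and 6.79% of all genes with a probe. The list median was -0.064. Without small intestine replicate 1 or 3 or any 1 adenoma array, 1 rose. The blocked counts were 0 and 1.

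**Figure D5:**
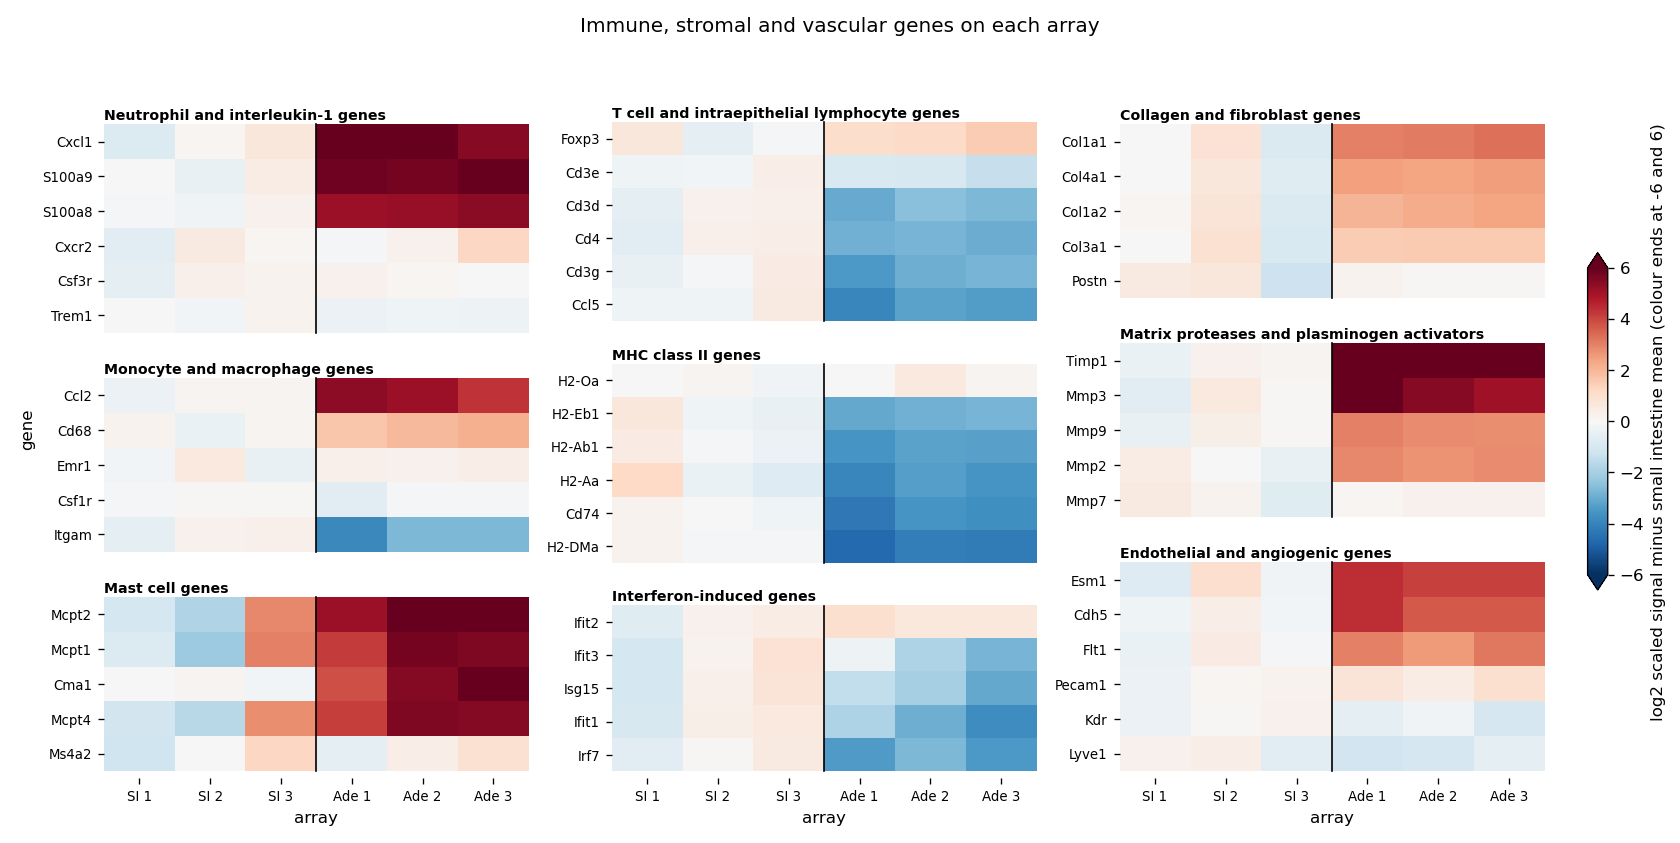
Log2 signal minus the small intestine mean of the same gene (colour, ending at -6 and 6) on each array (x axis; SI, small intestine; Ade, adenoma) for 9 immune, stromal and vascular lists, with members chosen as in the plot of growth genes. Most cytokine, protease and endothelial genes are red and most T cell and MHC class II genes blue in all 3 adenomas. Foxp3 goes against the T cell genes and Lyve1 against the endothelial genes, and Mcpt1, Mcpt2 and Mcpt4 are raised in SI 3.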

How the data were processed

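RNA of unsorted tissue was hybridised by the authors to 1-colour Agilent SurePrint G3 mouse arrays and read with Feature Extraction 10.7.3.1. The deposited scanner files hold intensity values per spot, with the background already subtracted in the processed signal by that program. The authors also deposited a table of log2 values for the same arrays, with the same distribution on every array, whose normalization method is not given in the sources used here. It was used as an alternative, and its columns of fold changes and p-values for 7 pairs of groups were not used.

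Processed intensity was taken as log2 and the 75th percentile of each array over probes that are not controls was subtracted. Spots of 1 probe were averaged, outlier spots left out, and 29540 probes well above background on all arrays of at least 1 group were fitted with limma 3.58.1 (lmFit and eBayes, R 4.3.3) on the 6 arrays, with Benjamini-Hochberg adjustment over all of them. Where a group was well above background on 0 arrays, the bound takes a substitute for its signal on each array. This is the lowest signal well above background on that array, or the probe's own signal where that was higher. For a gene with several probes, the probe with the brightest mean was used. Of 588 listed genes 579 had a probe, and Defa17, Defa20, Defa22, Defa24, Mptx2, Sh2d6, Ly6g, Ly6c2 and Hspa1b were not analysed here. Gene names come from the array files, or from RefSeq where a probe carried an accession (26576 probes by accession and 29105 by the file's name).

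Genes named are members of the lists, the 10 genes outside them with the largest difference in each direction, and Apc. The plots show the first 4 measured members of a list and its extremes, and other members were chosen for the text after their values were seen. The members and lists were chosen with earlier results of these data known. Alternatives were other scalings, background correction, filters, gene summaries and thresholds, blocks for slide, replicate number and mouse, each slide alone, and each array left out. The fit was tested on simulated data. Medians, counts and plots used Python 3.11.15, pandas 2.3.3 and matplotlib 3.10.9. p-values measure the spread between these samples. A few list members count in their lists' totals but are not reported here by name.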

Additional observations from a re-analysis of the deposited data

How the results depend on the processing

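Of the 32 lists with a median of at least 1 in size, all kept their sign within each slide and without any 1 array, and 31 under every setting, the exception being the proximal list. The counts of genes called higher and lower were 1006 and 995 with mouse as a random block and 537 and 327 within the slide with 2 arrays of each group. Without 1 array they ran from 1477 to 2864 and from 1693 to 3108, and 1574 genes were lower with the deposited log2 table. Same-numbered samples did not deviate together (correlations -0.00466, 0.0479 and -0.0972), so the replicate number names a sample only. With it as a replicate block 2233 genes were higher and 2222 lower.

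The median of all genes tested was -0.073 with median scaling, 0.10 with the percentile over detected probes, -0.047 with quantile normalization, -0.19 with normexp, -0.033 with the deposited table, -0.21 for probes detected on all arrays, -0.18 and -0.12 within the slides, and -0.19 to -0.11 without 1 array.
With normexp the medians were 0.58 for stem cell, -1.81 for enteroendocrine, 3.44 for gastric, 1.93 for regenerative, 0.24 for Notch, 1.23 for neutrophil, 0.14 for macrophage, 2.06 for mast cell, -1.32 for T cell, 2.0 for protease, 1.5 for endothelial and -0.15 for parietal genes.
With the deposited table they were -2.68 for brush border, 0.13 for goblet, -1.48 for enteroendocrine, 3.61 for gastric, 0.31 for EGF, -1.06 for identity, 1.42 for neutrophil, 0.31 for macrophage, 2.18 for mast cell, -1.19 for T cell, 2.14 for protease, 1.64 for endothelial, -0.85 for fatty acid, -0.92 for clock and 0.15 for parietal genes.
With a floor on low signals they were 0.50 for stem cell, -1.86 for enteroendocrine, 4.83 for gastric, 2.26 for neutrophil, 0.49 for macrophage and -0.36 for parietal genes.
With the percentile over detected probes they were 0.32 for EGF, -1.16 for identity, 0.73 for Notch, 0.22 for cyclin kinase inhibitor, 1.22 for macrophage, -0.97 for fatty acid and -0.87 for clock genes, and with quantile normalization 0.26 for EGF, -1.09 for identity, -0.86 for fatty acid and 0.26 for glycolysis genes.
For probes detected on all arrays they were -0.091 for proximal, 0.46 for EGF, -0.47 for Notch, 1.37 for neutrophil, 0.025 for macrophage, 3.04 for mast cell and 3.02 for pancreatic genes, where fewer genes entered each list.
Within the slide with 2 arrays of each group they were -1.58 for identity and 0.75 for Notch genes, and within the other, -1.15 for identity, 0.18 for Notch, 0.62 for macrophage, 1.18 for collagen, -2.43 for smooth muscle, 1.52 for endothelial, -0.97 for fatty acid, -0.95 for clock and 2.75 for blood genes.
Without 1 array, EGF genes ran from -0.12 to 0.34 and Notch genes from 0.28 to 0.71. The difference of Msi1, for which no direction is given, and some that had not passed changed sign. With the deposited table they were 0.057 for Csf1r, 0.26 for Fabp1, 0.26 for Gapdh, 0.12 for Gata4, 0.24 for Id3, 0.21 for Klf5 and 0.00667 for Muc2. Within the slide with 2 arrays of each group they were -0.11 for Dclk1, 0.19 for Fabp1 and 0.096 for Gata4. With quantile normalization they were 0.18 for Fabp1, 0.39 for Gapdh, 0.15 for Gata4, 0.22 for Id3, 0.23 for Klf5 and 0.0031 for Ptgs1. With the percentile over detected probes they were 0.021 for Gapdh, 0.16 for Gata4, 0.13 for Id3, 0.081 for Klf5 and 0.1 for Ptgs1. With the median over the probes of a gene it was 0.16 for Msi1. Without 1 array they ran from -0.041 to 0.47 for Dclk1, -1.59 to 0.48 for Fabp1, -0.75 to 0.39 for Gata4, -0.36 to 0.32 for Igj, -0.16 to 0.47 for Mmp7 and -2.9 to 0.93 for Slc10a2.
The causes of these moves were not tested. Differences of genes at or near background are limited by the signal over background. On simulated data with 3 arrays a group, 32% of changes of 1.5 and 98% of changes of 5 were recovered over 29533 probes. The simulation changed a much smaller share of probes than was called here and drew independent errors. It therefore does not give the share of changes near the threshold that was missed in these arrays.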

Other observations

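Core clock genes were lower in adenomas in part. Of 12 circadian clock genes 6 fell and 0 rose (median -1.13), 2 with mouse as a block, and 3 without adenoma replicate 1, with the percentile over detected probes or with the deposited log2 table. Arntl, the partner of the CLOCK protein, had log2 signals of 2.2, 2.45 and 2.71 in small intestine and 0.26, 0.08 and 0.23 in adenomas, a difference of -2.26 (SE 0.18, limma adjusted p = 0.000209). Npas2, a relative of Clock, fell by 2.58, and the repressors Cry1, Per2 and Cry2 by 2.36, 1.92 and 1.43, while Dbp differed by 0.25 and did not pass. The times of day of sampling are not given in the sources used here. The E-box CACGTG, searched on both strands, was in 4 of 16 clock promoters (25%) and 3 of 12 ribosome biogenesis promoters (25%), against 7.15% of all promoters, and the HNF4 core CAAAGTCCA in 0 of 12 lipid absorption and 2 of 24 brush border promoters, against 0.475%. Among 9 immediate early and heat shock genes, Egr1 rose from 0.28, -0.59 and 0.09 to 2.54, 1.96 and 2.66, higher by 2.46 (SE 0.29, limma adjusted p = 0.000803), Atf3 and Hspa1a fell by 2.08 and 1.58, and Fos overlapped between groups with a difference of -0.46. With mouse as a block none of these passed in limma, where 5 had an unadjusted p under 0.05, and 0 fell without adenoma replicate 1 or replicate 3.

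Outside the lists, the highest differences among genes detected on all 6 arrays without overlap included secreted proteins. Lrg1, leucine-rich alpha-2-glycoprotein, had log2 signals of -1.61, -1.06 and -0.51 in small intestine and 5.11, 5.64 and 5.68 in adenomas, 92.7-fold higher (limma adjusted p = 5.74e-05). Complement factor I (Cfi), lactotransferrin (Ltf) and interleukin-11 (Il11) rose by 6.05, 5.85 and 5.82, and the transcriptional coactivator Eya2, Tmem45a, Faim2, Mdfi, Ncmap and Gulo by 6.42, 6.32, 6.25, 6.15, 5.93 and 5.81.

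At the other end were enzymes and transporters. Plb1, a brush border phospholipase, went from 7.43, 6.32 and 1.35 to -3.67, -3.25 and -4.01, a difference of -8.68 (SE 1.43, limma adjusted p = 0.00288), and Tmigd1 from 6.46, 2.39 and 0.5 to -3.31, -3.01 and -3.61, a difference of -6.43. In both, the healthy arrays were themselves spread, replicate 1 being the highest. Susd2 went from 3.26, 3.12 and 3.13 to -1.92, -2.11 and -1.86, a difference of -5.13 (SE 0.15, limma adjusted p = 3.62e-05). Fam151a, Slc5a4b, Pdzk1, Npl, Apol9b, Aqp3 and Vnn1 fell too, with differences of -7.75, -6.09, -5.39, -5.2, -5.14, -5.13 and -5.11.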
